A study of Mus musculus with 6 samples.

Results

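The genes described here are 10 transcription factors that build the embryonic heart and its outer layer or other embryonic mesoderm: *Gata4*, *Gata6*, *Tbx5*, *Tbx20*, *Hand2*, *Mef2a*, *Mef2c*, *Meox1*, *Meox2* and *Wt1*. They were chosen by name from the 28987 genes of the table, and all 10 were found, each in a single row. The 6 RNA-seq libraries came from EGFP+ cardiac fibroblasts sorted by flow cytometry, 4 weeks after transverse aortic constriction (TAC), which narrows the aorta and loads the heart with pressure. Mice of the 3 control libraries carried a tamoxifen-activated Cre (MerCreMer) knocked into the *Postn* locus and a Cre-dependent EGFP reporter in the Rosa locus, and those of the 3 libraries labelled Hsp47-deleted the same alleles and *Hsp47* flox/flox. Per the labels, all mice were from 8 to 10 weeks old at surgery and received tamoxifen by injection (100 mg/kg) and in chow (40 mg/kg), so tamoxifen, Cre, reporter and pressure overload are shared by both groups. The methods of the paper state other doses for both the injection and the chow. Since Cre is driven by *Postn*, the sorted cells are those that had switched on this gene of activated fibroblasts, and whether a library holds cells of 1 mouse or of several is not given in the sources used here.

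GATA4 and GATA6 are zinc finger proteins that bind GATA motifs, TBX5 and TBX20 are T-box proteins, HAND2 is a basic helix-loop-helix protein that binds E-boxes, and MEF2A and MEF2C are MADS-box proteins whose activity is held down by class IIa histone deacetylases. These factors act together in the cardiac gene program of the embryo, and forced expression of GATA4, MEF2C and TBX5 is known to turn fibroblasts toward a cardiomyocyte-like state. MEOX1 and MEOX2 are homeodomain proteins of the mesoderm, and MEOX1 is known as a regulator of fibroblast activation. WT1 is a zinc finger protein of the epicardium, the layer from which most resident cardiac fibroblasts descend.

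Related genes can share reads, so the transcripts of the 10 factors were first compared with all other transcripts in GENCODE release M21 (GRCm38, which is mm10). No 31-base word was shared between any of the 10 factors. The share of words also found in some other gene was from 0.0429% (*Meox2*) to 1.14% (*Tbx5*) for 8 factors, 5.31% for *Mef2a* and 17.4% for *Hand2*, of which 401 of 403 words lie in the overlapping gene *Hand2os1*. Whether strand was used in quantification is not given in the sources used here, so reads from *Hand2* and *Hand2os1* may not be told apart. No gene named *Hand2os1* is listed among the deposited values. The following lines give the 120 coding bases that are most alike, without gaps, in the MEF2 pair, since these paralogs could be confused, with bases shared by the pair in capitals and bases that differ in lower case.
Mef2a: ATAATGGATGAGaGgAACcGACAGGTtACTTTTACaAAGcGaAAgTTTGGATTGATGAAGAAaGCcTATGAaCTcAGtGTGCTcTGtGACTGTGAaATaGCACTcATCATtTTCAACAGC
Mef2c: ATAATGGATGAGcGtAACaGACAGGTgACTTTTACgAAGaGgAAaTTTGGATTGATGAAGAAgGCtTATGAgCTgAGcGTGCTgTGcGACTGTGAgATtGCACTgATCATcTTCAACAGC
The stretch covers coding bases 31 to 150 of both genes, with 101 of 120 bases identical and a longest identical run of 17. Even where these paralogs are most alike, the identical runs are thus shorter than a 31-base word.

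The deposited values are log2(value + 1) of a linear abundance whose unit is not named, so levels are compared between libraries and not between genes, and the number of reads behind a value is unknown. Below, log2 values are listed for control replicates 3, 4 and 2, in this order, and then for replicates 1, 2 and 3 of the libraries labelled Hsp47-deleted. A difference on this scale understates the change of a gene with low values. By their labels, control replicates 3 and 4 were sequenced together, called the first run here, and control replicate 2 was sequenced with all 3 libraries labelled Hsp47-deleted in a second run. *Hsp47* itself (listed as *Serpinh1*) was at 6.28, 6.10 and 7.60 in the controls, and at 6.87, 6.67 and 6.66 in the other group. Its log2 fold change was 0.07 over all libraries (limma, BH-adjusted p = 0.947) and -0.87 relative to the second-run control, so the groups are called by their labels, directions included. By Western blot, the paper reports that Hsp47 protein was efficiently lost from sorted EGFP+ cells of the deleted genotype. That is a measure of protein, while the values here are of RNA. *Postn*, which drives the Cre, did separate the labels, at 5.87, 5.86 and 6.12 in the controls and at 10.22 or higher in the other group (limma, BH-adjusted p = 0.00337), with control replicate 2 beside the other controls. Across the tested genes, control replicate 2 had a higher Pearson correlation with Hsp47-deleted replicates 1 and 2 (0.936 and 0.923) than with control replicates 3 and 4 (0.827 and 0.761), which is a description, since it shares its run with the former. Each value given relative to the second-run control rests on this 1 library, whose genotype label, not its title, places it among the controls. Mitochondrially encoded genes made up between 23.5% and 29.4% of the linear sum of a control and between 4.70% and 7.23% of that of a library labelled Hsp47-deleted. The median log2 fold change of the 15109 genes tested (those with a mean linear value of at least 1) was 0.35 (0.355 before rounding), and each factor is therefore also given with the libraries centred on their medians. Relative to the second-run control, the median of these genes was 0.29. Values given relative to that control are not corrected for this shift unless stated. At an unadjusted limma p under 0.05, 2188 genes were higher and 114 lower in the values as deposited, 714 and 526 with centring, 690 and 575 with quantile normalization, 692 and 471 with the rescaling, and 825 and 192 with sequencing run as a covariate.

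All 10 factors passed the filter on low values. None of them differed between the groups at a Benjamini-Hochberg adjusted limma p under 0.05, a threshold passed by 0.245% of all tested genes. Before adjustment, *Gata6* and *Meox1* had a limma p under 0.05 and were higher under the deletion label, that is 2 of 10, while 14.5% of all tested genes were higher and 0.755% lower at this threshold. The log2 fold change was positive for 9 of the 10, against 74.5% of all tested genes, and *Tbx5* was the exception. The median over the 10 factors was 0.52, which is 0.16 above the median of all tested genes. In the second run alone the median was 0.24, 0.05 below that of all genes (-0.05). There, 7 of 10 were positive, against 10850 of the 15109 tested genes. The groups did not overlap at 1 factor, *Gata6*, which was higher in the libraries labelled Hsp47-deleted, as were 18.3% of all tested genes without overlap.

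**Figure D1:**
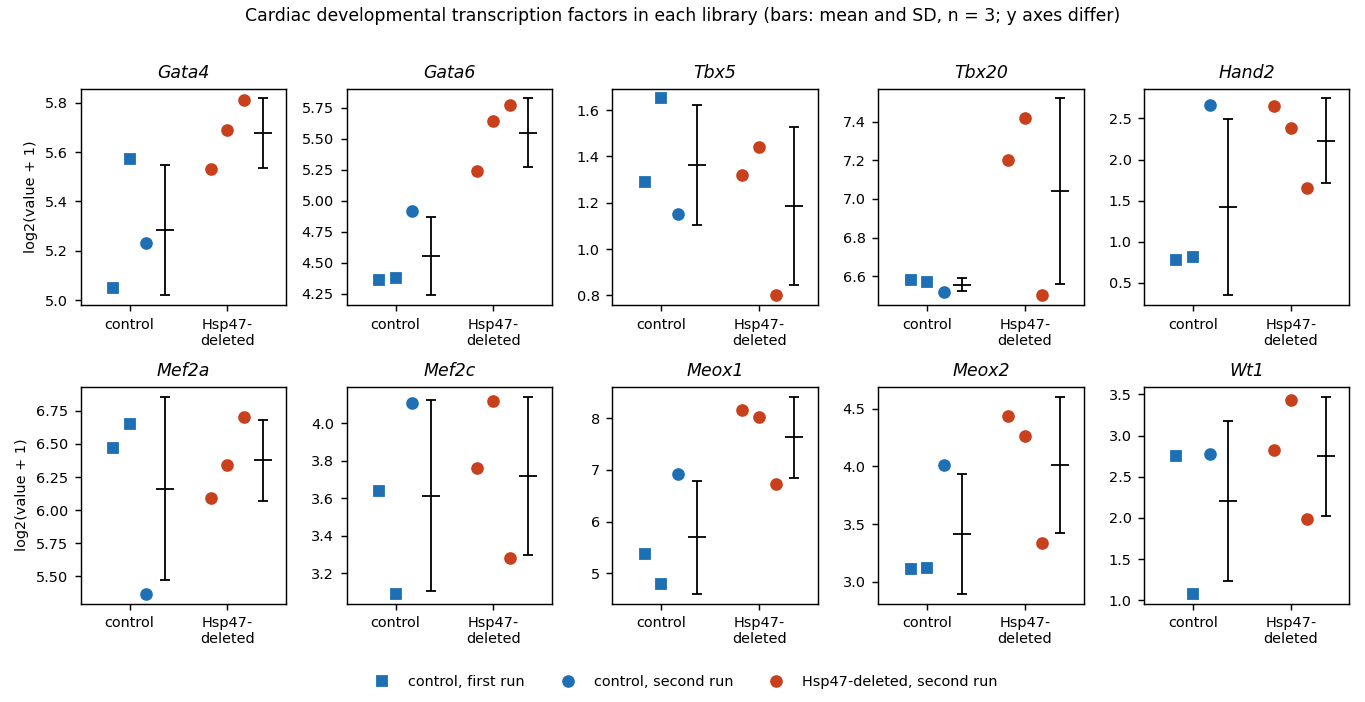
Deposited log2(value + 1) of each factor in the 6 libraries, with controls in blue (squares for the first run, circles for the second) and libraries labelled Hsp47-deleted in orange-red; bars give the mean and SD of each group (n = 3), and the y axes differ between panels. The groups are separate for Gata6, and the control of the second run lies within or above the range of the other group for Tbx5, Tbx20, Hand2, Mef2c, Meox1, Meox2 and Wt1.

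*Gata6* (ENSMUSG00000005836, protein-coding) was at 4.36, 4.38 and 4.92 on the log2 scale in the controls, and at 5.24, 5.64 and 5.77 in the other group. The highest control was the control of the second run, and it lay below all 3 libraries labelled Hsp47-deleted. The controls averaged 4.55 ± 0.32 (SD, n = 3), compared with 5.55 ± 0.27 (SD, n = 3) under the deletion label. The log2 fold change of *Gata6* was 1.00 (standard error 0.31, 95% interval from 0.28 to 1.71; limma, unadjusted p = 0.0124, BH-adjusted p = 0.282), which ranked 657 by p among all tested genes. The two-sided exact permutation p was 0.10, the smallest that 3 libraries against 3 can give. Relative to the median of all genes the difference was 0.64, and with the libraries centred on their medians it was 0.58. Relative to the second-run control it was 0.63, or 0.34 above the median of all genes in that comparison. The direction was the same in each. *Gata4* (ENSMUSG00000021944, chromosome 14 from 63198922 to 63271692 on the minus strand), its partner in heart development, was at 5.05, 5.57 and 5.23 in the controls, and at 5.53, 5.69 and 5.81 in the other group. Control replicate 4 reached into the range of the other group. For *Gata4* the log2 fold change was 0.39 (standard error 0.28, 95% interval from -0.27 to 1.04; limma, BH-adjusted p = 0.51), or 0.03 more than the all-gene median, and it was -0.03 with the libraries centred on their medians. Relative to the second-run control the difference of *Gata4* was 0.45. The difference between the GATA factors themselves was not tested.

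*Meox1* (ENSMUSG00000001493, chromosome 11 from 101877510 to 101894374 on the minus strand) had the largest difference of the 10 factors over all libraries and also the largest spread, while relative to the second-run control *Mef2a* had the largest. Its log2 value was 5.38, 4.80 and 6.91 in the controls, and 8.15, 8.01 and 6.73 in the other group. In linear values these are 40.5, 26.9 and 119 in the controls and 283, 257 and 105 in the libraries labelled Hsp47-deleted. Control replicate 2 thus lay above Hsp47-deleted replicate 3, and both were between the first-run controls and Hsp47-deleted replicates 1 and 2. The controls averaged 5.70 ± 1.09 (SD, n = 3), compared with 7.63 ± 0.78 (SD, n = 3) under the deletion label. This is a log2 fold change of 1.93, with a standard error of 0.61 and a 95% interval from 0.52 to 3.34. The limma p was 0.0135 before and 0.282 after BH adjustment, and the two-sided exact permutation p was 0.20. With the libraries centred or rescaled to nuclear protein-coding genes the difference of *Meox1* was 1.52 in both cases. Relative to the second-run control it was 0.72, or 0.43 above the median of all genes in that comparison. The 2 first-run controls lay 1.82 below the control of the second run on average, so the controls differed among themselves about as much as the groups did.

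*Meox2* (ENSMUSG00000036144, chromosome 12 from 37108540 to 37179534 on the plus strand) was at 3.11, 3.12 and 4.01 in the controls, and at 4.44, 4.26 and 3.34 in the other group. Its libraries fell in the same order as those of *Meox1* in the Hsp47-deleted group, with replicate 3 lowest. For *Meox2* the difference was 0.60 (standard error 0.42, 95% interval from -0.37 to 1.58; limma, BH-adjusted p = 0.492), 0.19 with the libraries centred and 0.01 relative to the second-run control. The last of these was -0.28 once the median of all genes in that comparison was taken off. Without Hsp47-deleted replicate 1 the difference of *Meox2* over all libraries was 0.39, and without replicate 3 it was 0.94.

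*Tbx20* (ENSMUSG00000031965, chromosome 9 from 24718138 to 24774303 on the minus strand), a repressor and activator needed for chamber growth, was nearly the same in the 3 controls, at 6.58, 6.57 and 6.52. In the other group it was at 7.20, 7.42 and 6.50. Replicates 1 and 2 lay above all controls, whereas replicate 3 lay below all of them. The log2 fold change was 0.49 (standard error 0.32, 95% interval from -0.26 to 1.23; limma, BH-adjusted p = 0.473). It was 0.76 without Hsp47-deleted replicate 3, at an unadjusted limma p of 0.0281 and a BH-adjusted p of 0.386, and 0.30 without Hsp47-deleted replicate 2, at an unadjusted p of 0.457. With the libraries centred on their medians the difference of *Tbx20* was 0.07, and relative to the second-run control it was 0.52. *Tbx5* (ENSMUSG00000018263, chromosome 5 from 119832668 to 119885219 on the plus strand), the Holt-Oram syndrome gene, had low values, at 1.29, 1.65 and 1.15 in the controls, and at 1.32, 1.44 and 0.80 in the other group. The groups overlapped, and the log2 fold change of *Tbx5* was -0.18 (standard error 0.35, 95% interval from -0.99 to 0.63; limma, BH-adjusted p = 0.819). With the libraries centred it was -0.59, and relative to the second-run control 0.03.

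*Hand2* (ENSMUSG00000038193, chromosome 8 from 57320983 to 57324633 on the plus strand) separated the sequencing runs rather than the labels. It was at 0.78 and 0.82 in control replicates 3 and 4, at 2.66 in control replicate 2, and at 2.65, 2.38 and 1.65 in the other group. Both libraries of the first run were thus below all 4 libraries of the second, and the control of the second run was the highest of the 6. In linear values the first-run controls were at 0.72 and 0.761, under a value of 1, and the control of the second run was at 5.34. The difference of *Hand2* was 0.80 (standard error 0.57, 95% interval from -0.52 to 2.13; limma, BH-adjusted p = 0.502) over all libraries, 0.39 with the libraries centred and -0.44 relative to the second-run control.

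*Mef2a* (ENSMUSG00000030557, chromosome 7 from 67231163 to 67372858 on the minus strand) was low in control replicate 2 and otherwise alike in both groups. It was at 6.47, 6.65 and 5.37 in the controls, and at 6.09, 6.34 and 6.70 in the other group. Control replicate 2 had the lowest value of the 6 libraries, 1.19 below the mean of the first-run controls (a difference of -1.19). The log2 fold change of *Mef2a* was 0.22 (standard error 0.40, 95% interval from -0.71 to 1.15; limma, BH-adjusted p = 0.809) over all libraries and -0.20 with the libraries centred. Relative to the second-run control it was 1.01. With sequencing run as a covariate this estimate had an unadjusted limma p of 0.0251 and a BH-adjusted p of 0.667, in a fit where 6.73% of all tested genes had an unadjusted p under 0.05. *Mef2c* (ENSMUSG00000005583, chromosome 13 from 83504034 to 83667080 on the plus strand) was at 3.64, 3.09 and 4.11 in the controls, and at 3.76, 4.12 and 3.28 in the other group. The groups covered nearly the same range, and the log2 fold change of *Mef2c* was 0.11 (standard error 0.38, 95% interval from -0.78 to 0.99; limma, BH-adjusted p = 0.908). It was -0.39 relative to the second-run control and -0.31 with the libraries centred.

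*Wt1* (ENSMUSG00000016458, chromosome 2 from 105126529 to 105173616 on the plus strand) was at 2.75, 1.08 and 2.78 in the controls, and at 2.83, 3.43 and 1.99 in the other group. Control replicate 4 was lowest, and the other libraries overlapped. For *Wt1* the log2 fold change was 0.55 (standard error 0.58, 95% interval from -0.79 to 1.88; limma, BH-adjusted p = 0.657), 0.13 with the libraries centred, -0.015 without control replicate 4 and -0.03 relative to the second-run control.

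**Figure D2:**
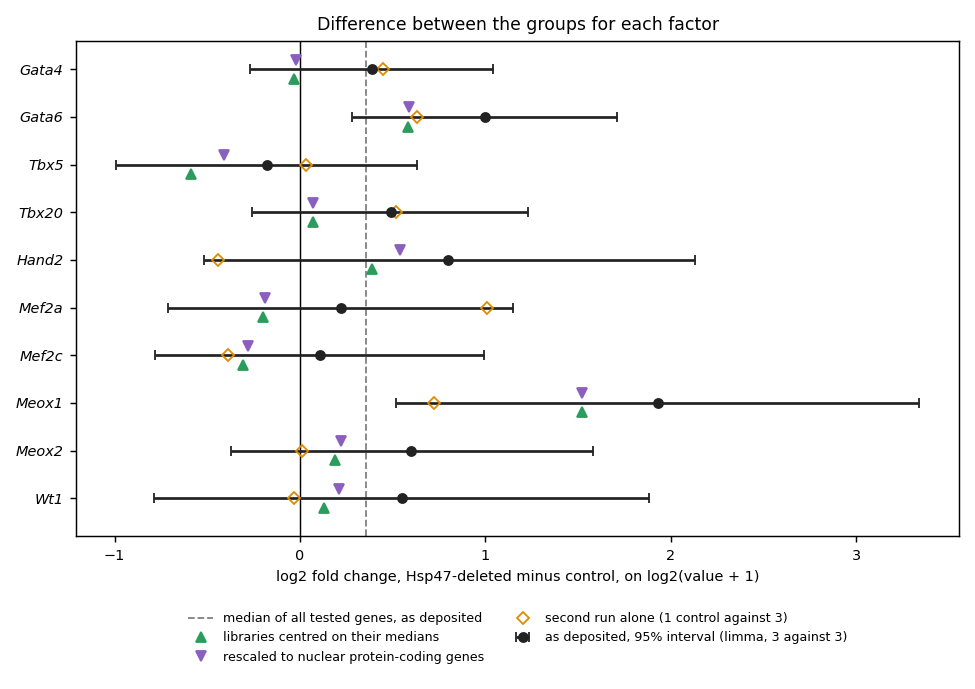
Log2 fold change of each factor (x axis, libraries labelled Hsp47-deleted minus controls, log2(value + 1) scale) with its 95% limma interval, beside the difference after centring, after rescaling to nuclear protein-coding genes, and relative to the second-run control (open diamonds, no test). The intervals of Gata6 and Meox1 lie above 0, the dashed line marks the median of all tested genes at 0.35, and Hand2, Mef2c and Wt1 fall below 0 in the second run.

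The controls of the runs were then compared with each other for the same genes. The control of the second run lay within the range of the libraries labelled Hsp47-deleted at 6 of 10 factors, against 41.6% of all tested genes. It lay outside the 2 controls of the first run at 9 of 10, against 83.1% of all genes, *Gata4* being the exception. At 6 of 10 factors the control of the second run differed from the mean of the first-run controls by more than the groups differed, against 67.5% of all genes. Without control replicate 2, sequencing run and label coincide, and *Gata6* (log2 fold change 1.18, limma, BH-adjusted p = 0.0311), *Hand2* (1.43, BH-adjusted p = 0.0438) and *Meox1* (2.54, BH-adjusted p = 0.0146) were called, that is 3 of 10, in a comparison that called 18.3% of all tested genes. In that comparison the sequencing run and the deletion cannot be told apart.

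Several of the factors are also made by other cells of the heart, cardiomyocytes and endothelial cells for the GATA and MEF2 factors and epicardial cells for *Wt1*, so markers of these cells were summed in each library in linear values. In bulk cells, fewer cells of a type and less RNA per cell cannot be told apart. The 12 fibroblast markers summed to between 10300 and 16000 in the controls and between 16900 and 20700 in the libraries labelled Hsp47-deleted, and none of them was under 1 in any library. *Postn*, which drives the Cre, is among these markers. Its log2 value was 6.12 in control replicate 2 and 10.36 in Hsp47-deleted replicate 3, the libraries with sums of 16000 and 16900. The separation of the fibroblast ranges rests on this gene. The 12 cardiomyocyte markers summed to 111, 60.8 and 308 in the controls, and to 270, 342 and 202 in the other group. The 10 endothelial markers ran alike, with 152, 95.8 and 274 in the controls and a range of 173 to 266 under the deletion label. The 9 leukocyte markers in the table summed to between 38.1 and 92.4 in the controls and between 101 and 131 in the libraries labelled Hsp47-deleted, with *Ptprc* at 0 in all 6. The fibroblast, cardiomyocyte, endothelial, leukocyte and Schwann sums were all lowest in the first-run controls, as were *Gata6*, *Hand2*, *Meox1* and *Meox2*. The mural and erythroid sums were not, and neither were *Gata4*, *Tbx5*, *Tbx20*, *Mef2a*, *Mef2c* and *Wt1*. The part of other cells in the factors was not tested. Of 9 mesothelial and epicardial markers, including *Upk3b*, *Krt19* and *Msln*, all 9 were under a linear value of 1 in every library, and their sum was at most 1.5. Mural markers summed to between 183 and 312 in the controls and 177 and 264 in the other group, the 5 Schwann markers to between 8.82 and 16.5 and between 16.4 and 21.5, and the 3 erythroid markers to between 13.3 and 342 and between 81.1 and 136. The 10 factors together summed to between 302 and 360 in the controls and between 430 and 657 in the libraries labelled Hsp47-deleted, a sum that *Tbx20*, *Mef2a* and *Meox1* make up for the most part. All these sums are of values as deposited. They were not rescaled for mitochondrially encoded genes, which held from 23.5% to 29.4% of a control and from 4.7% to 7.23% in the other group. The part of that difference in the separate ranges of some sums was not tested.

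**Figure D3:**
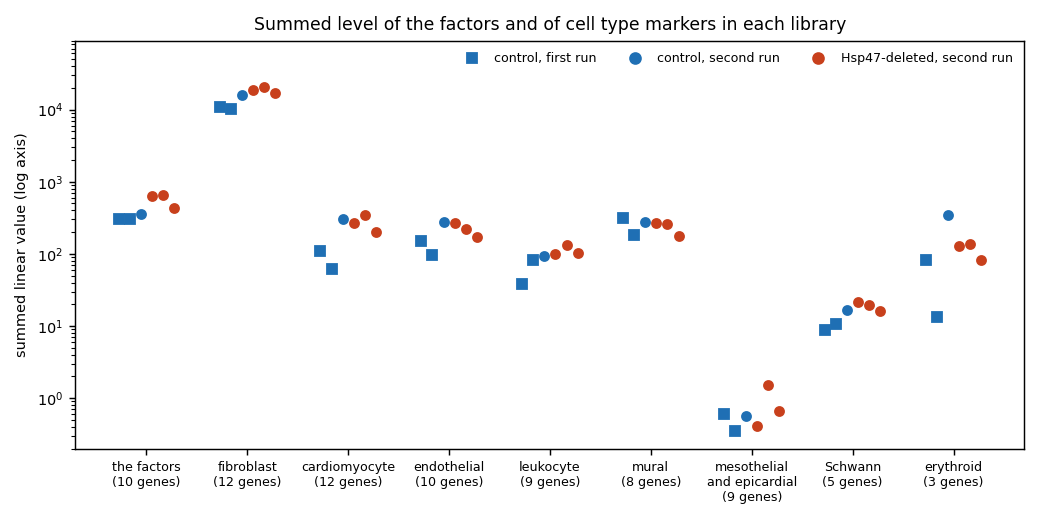
Summed linear value (log axis) of the 10 factors and of the markers of each cell type in the 6 libraries, with squares for controls of the first run, blue circles for the control of the second run and orange-red circles for libraries labelled Hsp47-deleted. Cardiomyocyte and endothelial markers are lowest in the controls of the first run, and mesothelial and epicardial markers stay at or under 1.5 in every library.

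Genes that work with the 10 factors were described in the same fit. Of 27 other cardiac developmental factors, among them the paralogs of the 10, 17 passed the filter and 14 were positive, with a median log2 fold change of 0.46 against 0.35 for all tested genes. None passed after adjustment, and at an unadjusted limma p under 0.05 there were 2 higher and 0 lower, beside the 14.5% of all tested genes given above. These were *Tcf21*, which marks epicardium-derived fibroblasts, and *Sox9*, a factor of cartilage and of valve cushions. *Tcf21* was at 4.80, 4.92 and 6.47 in the controls, and between 7.28 and 7.67 in the other group. The groups did not overlap, and the log2 fold change of *Tcf21* was 2.09 (standard error 0.47, limma, BH-adjusted p = 0.187), or 1.02 relative to the second-run control. *Sox9* was 1.05 higher (standard error 0.34, limma, BH-adjusted p = 0.283), again with separate groups, and 0.64 relative to the second-run control. *Nkx2-5*, the cardiomyocyte homeobox factor, was between 0.00 and 0.29 on the log2 scale, and *Isl1* and *Irx4* were listed at 0 in all 6 libraries.

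Of the cofactors and signal inputs, 22 of 23 rows were tested, with *Hdac4* listed under 2 gene identifiers. The median log2 fold change was 0.64, which is 0.29 above that of all tested genes, and 19 of 22 were positive. At an unadjusted limma p under 0.05, 5 of 22 rows were higher, 2 of them the *Hdac4* rows, beside 14.5% of all tested genes, and none passed after adjustment. The smallest p was that of *Mkl1*, a coactivator of serum response factor, at 2.86, 3.09 and 3.43 in the controls, and at 4.44, 4.06 and 4.22 in the other group. The groups did not overlap, and the log2 fold change of *Mkl1* was 1.11 (standard error 0.30, limma, BH-adjusted p = 0.263), or 0.81 relative to the second-run control. *Hdac5*, a class IIa deacetylase that restrains MEF2, followed at 1.32 (standard error 0.37, limma, BH-adjusted p = 0.271), with separate groups, and 0.85 relative to the second-run control. In the second run alone 18 of 22 were positive, against 10850 of the 15109 tested genes. The median there was 0.47, against 0.29 for all genes.

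Of 15 textbook target genes of the factors, 9 were tested. Their median log2 fold change was 1.20 over all libraries but -0.25 relative to the second-run control. In that comparison 3 of 9 were positive, against 10850 of the 15109 tested genes. Higher at an unadjusted limma p under 0.05 were 2 of 9, beside 14.5% of all tested genes, and none passed after adjustment. *Cdkn1a*, a cell cycle inhibitor that MEOX proteins can activate, had the smallest p (log2 fold change 1.87, limma, BH-adjusted p = 0.115). The groups of *Cdkn1a* did not overlap, and relative to the second-run control it was 1.37 higher. *Nr4a1*, a MEF2 target and immediate early gene, was at 6.07, 5.54 and 8.08 in the controls, and at 8.59, 9.72 and 8.53 in the other group, which is 2.38 higher on average (standard error 0.67, limma, BH-adjusted p = 0.274). Its groups did not overlap, and the control of the second run was 0.87 below the mean of the other group. For *Nppa*, the natriuretic peptide gene that GATA4 and TBX5 activate in cardiomyocytes, the control of the second run stood apart at 5.17, while the other 5 libraries were between 2.34 and 2.97.

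**Figure D4:**
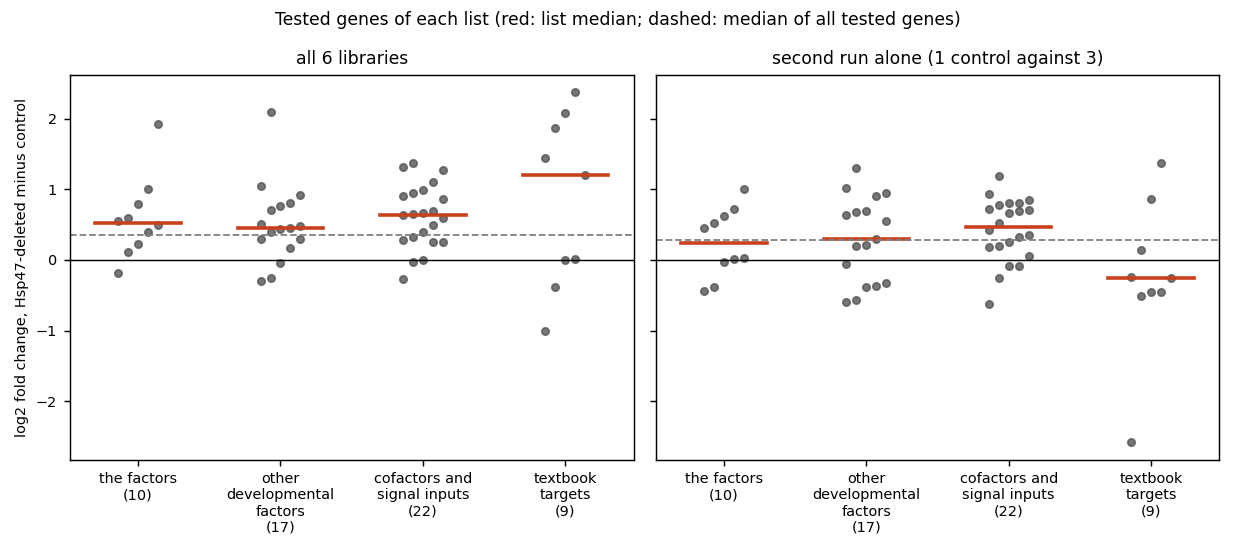
Log2 fold change (y axis, libraries labelled Hsp47-deleted minus controls) of each tested gene among the 10 factors, 17 other developmental factors, 22 rows of cofactors and signal inputs and 9 textbook targets, over all 6 libraries on the left and relative to the second-run control on the right. Red lines are list medians and dashed lines the median of all tested genes, and the targets' median goes from 1.20 on the left to -0.25 on the right.

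For the 3 factors with the smallest p, the named genes with the most similar profile over the 6 libraries were looked up, as the root mean square distance between log2 values centred on each gene's mean. Nearest to *Gata6* were *Ppp1cc* (distance 0.070), a phosphatase subunit, *Uaca* (0.082) and *Plxna1* (0.088), a semaphorin receptor, with log2 fold changes of 0.92, 1.03 and 0.85. Nearest to *Meox1* were *Wisp2* (0.130), a matricellular protein of the CCN family, *Golga2* (0.134), a Golgi matrix protein, and *Mgll* (0.146), a lipase, with log2 fold changes of 1.87, 1.86 and 1.72. In all 3 genes near *Meox1* the control of the second run lay well above the controls of the first run, as *Meox1* did. Nearest to *Tbx20* were *Adcy9* (0.053), *Mllt6* (0.060) and *Wdr19* (0.087), whose Hsp47-deleted replicate 3 was likewise level with the controls. Among the 10 factors, the closest pair was *Hand2* and *Meox2* (0.344) and the most distant *Mef2a* and *Meox1* (1.474). The neighbours were picked by these same values, so their fold changes and the place of each library follow from the choice. With 6 libraries and so many genes, near profiles are a description of these libraries.

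Promoter sequence from RefSeq (GRCm38.p6, 250 bases before to 50 after the start) was found for 5 of the 10 factors, in 7 windows. The windows of the closest pair are printed, with GATAA and the E-box CANNTG, searched on both strands, in capitals.
Hand2 (chr8:57320733-57321032, plus strand): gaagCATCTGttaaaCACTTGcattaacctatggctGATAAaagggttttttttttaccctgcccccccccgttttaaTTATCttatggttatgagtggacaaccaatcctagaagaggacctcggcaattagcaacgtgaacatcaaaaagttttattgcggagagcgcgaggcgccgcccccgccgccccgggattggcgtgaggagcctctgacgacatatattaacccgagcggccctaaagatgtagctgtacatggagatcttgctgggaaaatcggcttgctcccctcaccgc
Meox2 (chr12:37108290-37108589, plus strand): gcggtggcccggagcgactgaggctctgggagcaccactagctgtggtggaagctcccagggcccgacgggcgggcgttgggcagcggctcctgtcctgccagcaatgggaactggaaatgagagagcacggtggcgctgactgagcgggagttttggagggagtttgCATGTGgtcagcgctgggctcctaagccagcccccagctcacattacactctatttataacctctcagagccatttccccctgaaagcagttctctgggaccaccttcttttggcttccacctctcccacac
The *Hand2* window held 2 GATAA and 2 CANNTG matches, and the *Meox2* window 1 CANNTG and 1 MEF2 consensus match. Of all 32851 promoter windows, 25.4% held GATAA, 72.3% CANNTG, 19.0% GGTGTG (a T-box core) and 3.19% the MEF2 consensus. The *Mef2a* window held 1 GGTGTG and 1 MEF2 match, the *Tbx20* window none of the 4 motifs, and of the 3 *Mef2c* windows 1 held 2 GATAA and 1 GGTGTG matches. The other *Mef2c* windows held only CANNTG matches, 2 in 1 window and 1 in the other. These matches are descriptions of the sequence, and no binding was measured.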

How the data were processed

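The authors deposited, per the file headers, a table of 28987 genes in log2(value + 1), 1 column for each library, with group means and their own comparison (folds and p-values), which was not used here. The submitters' processing notes list kallisto and mm10 without a role, and the paper names AltAnalyze. The linear unit and the depth per library are not given in the sources used here. Columns were matched to libraries by title, replicate numbers are those in the titles, and controls were assigned by genotype label. The comparison was a limma fit (version 3.58.1 under R 4.3.3, eBayes with a mean-variance trend) over the 15109 genes with a mean linear value of at least 1, with BH adjustment, after tests on simulated data. P-values measure the spread between these libraries, whose independence no source states. The text names the 10 factors, the 2 genes with the smallest p in each related list, the 3 nearest profiles of 3 factors, and markers. *Nkx2-5*, *Isl1*, *Irx4* and *Nppa* were named after their values were seen. The factors and lists were chosen with earlier results of these data known. Paralog and word comparisons used GENCODE release M21 transcripts. The coding stretch of 1 further pair is not reported here.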

Additional observations from a re-analysis of the deposited data

How the results depend on the processing

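At an adjusted p under 0.05, the count of factors called was 0 under each alternative tried other than leaving out replicates, which gave from 0 to 3, the 3 being without control replicate 2 (*Gata6*, *Hand2* and *Meox1*, at 1.18, 1.43 and 2.54). For the related lists the count was likewise 0, and from 0 to 15 of 48 with replicates left out, 15 without control replicate 2. The fit without control replicate 2 called 18.3% of all tested genes, and in it sequencing run and label coincide. At an unadjusted p under 0.05, the count of factors was 2 in the main fit, *Gata6* and *Meox1*. It was 1 with centring and 1 with rescaling to nuclear protein-coding genes (chosen after the data were seen), *Meox1* in both cases. With quantile normalization it was 0. With run as a covariate it was 1, *Mef2a*, while the unadjusted limma p was 0.121 for *Gata6* and 0.256 for *Meox1*. With replicates left out the count was from 1 to 3. Over all genes, 37 were called, and 18 with centring, 17 with quantile normalization, 16 with a pseudocount of 0.1, 16 with rescaling, 50 with run as a covariate (18 higher and 32 lower, against 35 and 2), from 8 to 2768 with replicates left out and 0 with the replicate block. *Gata6*, *Tbx20*, *Meox1* and *Meox2* stayed positive under every alternative. Signs that turned were *Gata4* with centring (-0.026) and rescaling (-0.018), *Mef2a* with centring (-0.20), quantile normalization (-0.13), rescaling (-0.19) and without control replicate 2 (-0.18), and *Mef2c* with the same 3 scalings (-0.31, -0.30 and -0.28), the block (-0.17), without Hsp47-deleted replicate 2 (-0.096) and without control replicate 4 (-0.16). With replicates left out, *Mef2a* was from -0.18 to 0.46, *Mef2c* from -0.16 to 0.36, *Wt1* from -0.015 to 0.93, *Tbx20* from 0.30 to 0.76, *Meox2* from 0.39 to 0.94, *Hand2* from 0.49 to 1.43 and *Tbx5* from -0.31 to 0.015, the last without Hsp47-deleted replicate 3. *Wt1* was at -0.056 with the block and -0.015 without control replicate 4. In the second run alone, and with run as a covariate, which gives the same estimates, *Tbx5* was at 0.032, *Hand2* at -0.44, *Mef2c* at -0.39, *Wt1* at -0.031 and the targets' median at -0.25. The cause of these turns was not tested. Replicate numbers 2 and 3 occur in both groups and share only a number (correlations of deviations 0.156 and 0.228), and with this replicate block *Gata6* was at 1.06 and *Meox1* at 1.23. The unknown depth limits what can be said of *Tbx5* and *Hand2*, whose values are low.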
